A study of Mus musculus with 16 samples.

Results

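The genes described here are 9 feedback inhibitors of mitogen-activated protein kinase (MAPK) signalling: the dual-specificity phosphatase genes Dusp2, Dusp4, Dusp5, Dusp6 and Dusp10, the Sprouty genes Spry1 and Spry2, and the Spred genes Spred1 and Spred2. They were taken by symbol from a table of 24421 genes, and all 9 were among the 13554 genes with enough counts to be tested. RNA sequencing was done on naive T cells from lymph nodes of C57BL/6 mice, gated as CD25 negative, CD62L high and CD44 low, with no treatment or genetic change named in the labels. CD8+ and CD4+ cells were each divided by surface CD5 into 3 equal parts, of which the highest (CD5hi) and the lowest (CD5lo) were kept. This gave 4 groups, CD8 CD5hi, CD8 CD5lo, CD4 CD5hi and CD4 CD5lo, each with 4 libraries numbered 1 to 4. The series calls these biological replicates, but the labels do not say whether they came from separate animals or what a number stands for, so p-values measure only the spread between these samples.

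ERK is the last kinase of the RAS, RAF, MEK and ERK cascade, which the T cell receptor switches on through the RAS activator RASGRP1. Dual-specificity phosphatases remove phosphates from MAPKs and so switch them off; DUSP2, DUSP4 and DUSP5 act in the nucleus, DUSP6 acts on ERK in the cytoplasm, and DUSP10 prefers the related kinases JNK and p38. Sprouty and Spred proteins act further up, between the receptor and RAF, and Spred proteins do so by bringing the RAS inhibitor neurofibromin to the membrane. Many of these genes are themselves switched on by ERK, and CD5, a receptor that dampens T cell receptor signals, is higher on naive cells that bind self ligands more strongly. The comparisons ask whether the feedback genes differ between CD5hi and CD5lo cells and between the 2 lineages.

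Libraries held 71447252 to 93418385 counts, and no library was a copy of another. Cd5 itself averaged 498 ± 37.8 CPM in CD8 CD5hi cells and 200 ± 12.3 CPM in CD8 CD5lo cells, and 1386 ± 34.4 CPM in CD4 CD5hi cells against 255 ± 19.5 CPM in CD4 CD5lo cells (SD, n = 4 each). CPM (counts scaled to a common library size, with TMM factors) is the level used throughout. Cd8a lay between 1563 and 2140 CPM in CD8 libraries and at no more than 11.4 CPM in CD4 libraries. Cd4 lay between 971 and 1268 CPM in CD4 libraries, at 0.415 to 62.2 CPM in CD8 CD5hi libraries and at 0.568 to 27.2 CPM in CD8 CD5lo libraries. The lineage labels thus held, with some Cd4 RNA in CD8 libraries. The summed level of 12 B cell marker genes was 804 CPM in CD8 CD5hi library 4, 503 CPM in CD8 CD5lo library 3 and 322 CPM in CD4 CD5lo library 3, against 10.3 to 62.0 CPM in the other 13. Where leaving out these 3 libraries changes a call, both values are given.

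Per length of exon, Dusp2 was the most abundant of the 9 genes, with a level of 194 CPM per kilobase over the 16 libraries. Dusp10 followed with 69.0, Dusp6 with 30.2 and Dusp5 with 23.3 CPM per kilobase. Spred2 had 6.54, Dusp4 5.38, Spred1 1.82, Spry1 1.47 and Spry2 0.228 CPM per kilobase. The phosphatase genes other than Dusp4 thus lay above the Sprouty and Spred genes on this scale, and Spry2 was close to the limit of detection.

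Promoter sequence is shown for 4 of the genes. Dusp5 and Dusp10 moved together across libraries, and Spred1 and Spred2 passed the main test between CD8 CD5lo and CD4 CD5lo cells. RefSeq (GRCm38.p6) gave a promoter for 8 of the 9 genes, Dusp4 being the other one. Each line runs 5′ to 3′ on the plus strand of GRCm38, from 250 bases before the start of the RefSeq transcript to 50 bases from it on. The Dusp5 window is chr19:53528895-53529194, the Dusp10 window chr1:184034131-184034430, the Spred1 window chr2:117120821-117121120 and the Spred2 window chr11:19924192-19924491. Capitals mark matches, on either strand, to the GC box GGGCGG, to TGACG (the core of the cyclic AMP response element) and to the CArG box, the binding pattern of serum response factor.
Dusp5: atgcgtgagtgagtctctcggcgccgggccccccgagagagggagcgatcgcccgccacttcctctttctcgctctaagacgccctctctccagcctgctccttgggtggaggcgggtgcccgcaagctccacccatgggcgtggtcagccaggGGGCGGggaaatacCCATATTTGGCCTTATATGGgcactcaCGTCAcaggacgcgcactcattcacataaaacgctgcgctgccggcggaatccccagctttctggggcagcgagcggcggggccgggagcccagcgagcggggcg
Dusp10: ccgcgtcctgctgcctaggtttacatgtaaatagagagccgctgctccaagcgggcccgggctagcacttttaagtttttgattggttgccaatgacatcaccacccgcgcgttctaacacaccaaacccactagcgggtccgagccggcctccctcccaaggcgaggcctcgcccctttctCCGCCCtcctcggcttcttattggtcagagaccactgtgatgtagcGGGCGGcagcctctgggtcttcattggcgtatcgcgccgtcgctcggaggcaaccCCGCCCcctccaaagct
Spred1: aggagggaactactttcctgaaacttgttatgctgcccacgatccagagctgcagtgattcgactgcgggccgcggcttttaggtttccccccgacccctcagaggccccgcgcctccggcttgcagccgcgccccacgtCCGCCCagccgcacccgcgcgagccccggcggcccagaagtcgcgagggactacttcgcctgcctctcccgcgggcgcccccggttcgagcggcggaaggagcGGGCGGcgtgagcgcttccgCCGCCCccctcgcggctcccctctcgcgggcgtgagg
Spred2: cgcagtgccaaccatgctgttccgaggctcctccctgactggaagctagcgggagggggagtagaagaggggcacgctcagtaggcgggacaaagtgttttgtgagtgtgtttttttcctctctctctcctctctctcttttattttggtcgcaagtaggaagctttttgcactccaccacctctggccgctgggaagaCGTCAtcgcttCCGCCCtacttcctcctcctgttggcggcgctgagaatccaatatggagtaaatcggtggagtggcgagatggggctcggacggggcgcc
The Dusp5 window held 2 CArG boxes side by side, CCATATTTGG and CCTTATATGG, in the run of capitals that starts 82 bases before the transcript. A CArG box stood in 1.63% of 32851 promoter windows of the same length, and none of the other 7 members' windows had one. TGACG was found in the windows of Dusp2, Dusp5 and Spred2 and in 20.8% of all windows, and GGGCGG in those of Dusp2, Dusp5, Dusp10, Spry1, Spred1 and Spred2 and in 35.7% of all windows. The EGR pattern GCGNGGGCG, which can overlap a GC box, was found in the Dusp2 window and in 5.55% of all windows. Loose NF-kB letters, GGG and CC with any 5 bases between them, were in all 8 windows but also in 50.8% of all windows, and were not capitalised. None of the 8 windows held the full element TGACGTCA (1.79% of all windows), the AP-1 pattern TGANTCA (7.81%) or the ETS pattern CCGGAAG (8.86%). These matches describe letters in a window and do not show binding.

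**Figure D1:**
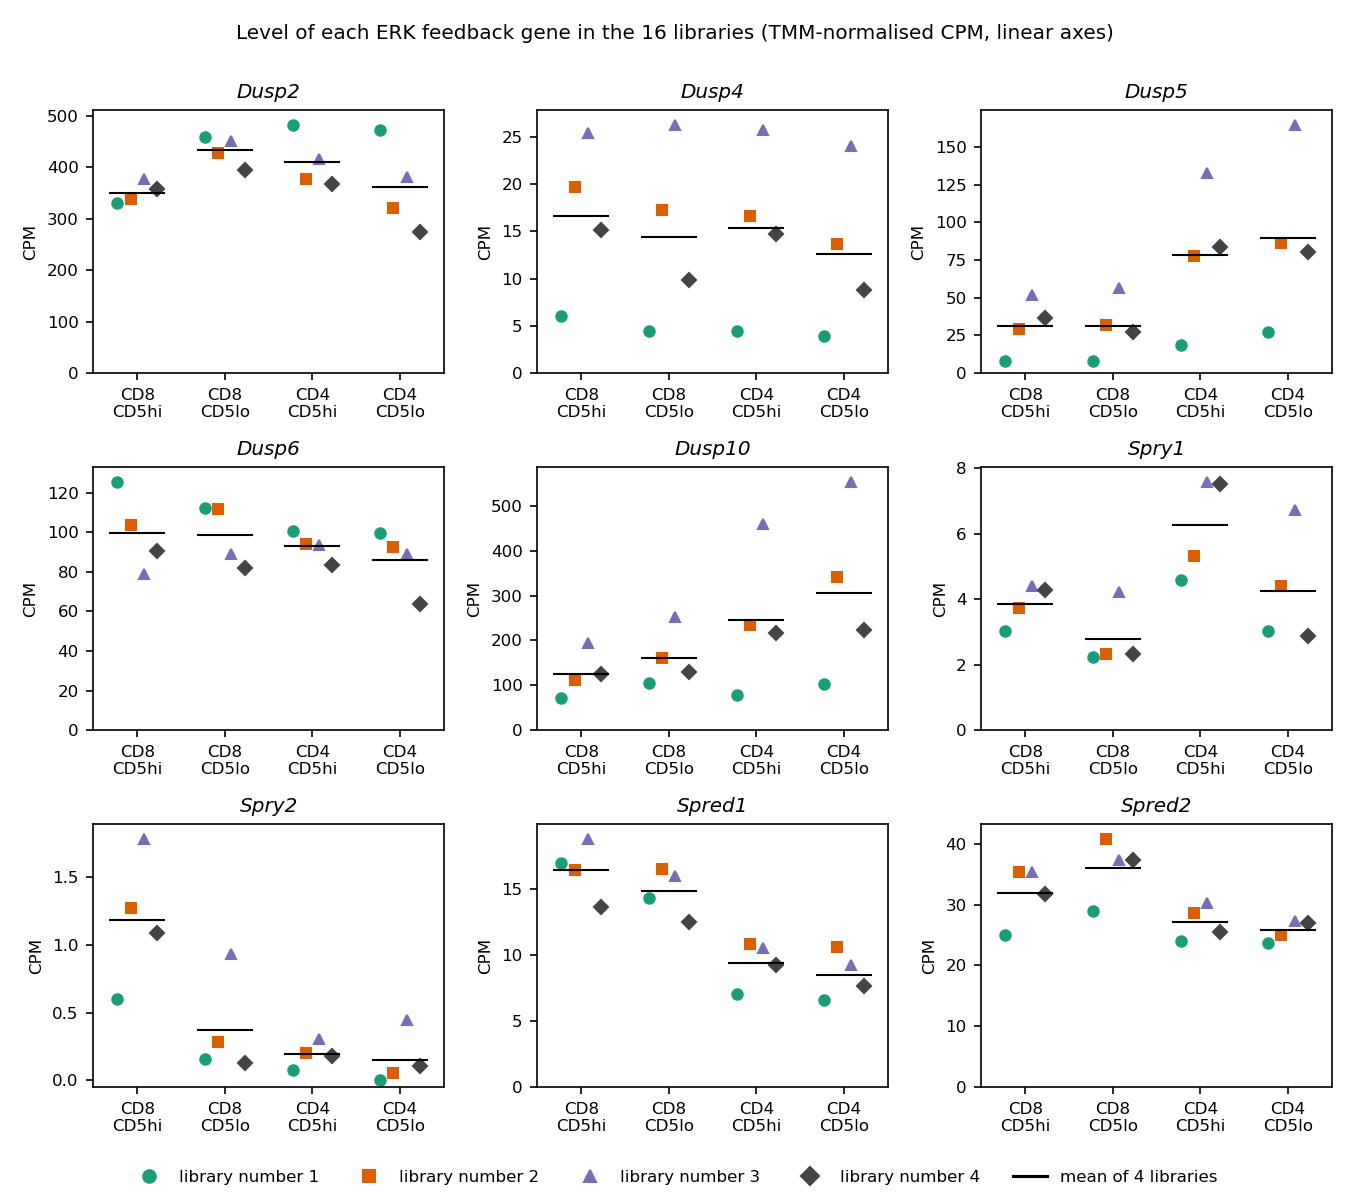
Level of each of the 9 genes (CPM, linear axes, 1 panel per gene) in the 16 libraries, by group; symbols are library numbers 1 to 4 and lines the mean of 4 libraries. Spred1 lay at 12.6 CPM or more in every CD8 library and at 10.8 CPM or less in every CD4 library, while library 1 was the lowest and library 3 the highest in all 4 groups for Dusp4, Dusp5 and Dusp10.

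None of the 9 genes passed the test between CD5hi and CD5lo cells in either lineage without library number as a block. In CD8 cells 0 of 9 were called at an adjusted p under 0.05 by edgeR's quasi-likelihood test, against 9.46% of all tested genes. In CD4 cells 0 of 9 were called, against 4.08% of all tested genes. DESeq2 and limma voom also called 0 of 9 in each. At an unadjusted p under 0.05 edgeR gave Spry2 (higher) and Dusp2 (lower) in CD8 CD5hi cells and 0 genes in CD4 cells. The median log2 change of the 9 was 0.03 in CD8 cells and 0.14 in CD4 cells, beside a median near 0.00 over all genes in both. The interaction, which asks whether the CD5 difference in CD8 cells departs from that in CD4 cells, called 0 of 9 (0.31% of all genes) by edgeR, DESeq2 and limma voom, and 1 at an unadjusted p under 0.05, Dusp2. With library number as a block, edgeR called Spry1 (higher) in CD4 cells, where 9.68% of all genes were called. In CD8 cells, where numbers 3 and 4 did not pair the libraries, the block called Spry2 and Spry1 (higher) and Dusp2 (lower), and 3390 of 13554 genes. For scale, edgeR without a block was run on simulated data of the same size that held no library-number effect. It found 85% of genes changed 2-fold and 50% of genes changed 1.5-fold in the CD8 comparison, and 95% and 69% in the CD4 comparison. The changed genes were drawn from those averaging above 1 CPM, which leaves out Spry2. These shares are averages and do not hold for members with a wide spread. In the CD4 comparison the log2 SE was 0.61 for Dusp4, 0.65 for Dusp5 and 0.50 for Dusp10.

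Dusp2 encodes the nuclear phosphatase PAC-1, first known from activated T cells. The gene lies at chr2:127336159-127338376 on the plus strand (GRCm38, GENCODE vM21), with 2003 exonic bases in 3 exon blocks. In libraries 1 to 4 it had 330, 338, 377 and 359 CPM in CD8 CD5hi cells and 460, 428, 451 and 395 CPM in CD8 CD5lo cells. In CD4 CD5hi cells the values were 483, 377, 416 and 368 CPM, and in CD4 CD5lo cells 473, 321, 382 and 273 CPM. All 4 CD8 CD5hi libraries lay below all 4 CD8 CD5lo libraries, which was so, in either direction, for 14.8% of all genes; the CD4 groups overlapped widely. In CD4 cells the CD5hi and CD5lo libraries of all 9 members overlapped, while 9.29% of all genes had no overlap there. The log2 difference was -0.30 ± 0.13 (SE) in CD8 cells (edgeR adjusted p = 0.179) and 0.18 ± 0.13 in CD4 cells (adjusted p = 0.724). It passed in CD8 cells when only those 8 libraries entered the fit (-0.30, edgeR adjusted p = 0.0421), a fit that called 6.17% of all genes. The interaction was -0.49 ± 0.19, with an edgeR adjusted p of 0.471. It was below 0 in 4 of 4 numbers. EdgeR with library number as a block did not call it, while DESeq2 with the block, a fit chosen after seeing the data, did. The blocked edgeR fit did call Dusp2 as lower in CD8 CD5hi than in CD8 CD5lo cells. It called 3390 of 13554 genes, and numbers 3 and 4 did not pair the libraries there.

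Between lineages, Dusp2 stood at 351 ± 21.0 CPM in CD8 CD5hi cells and 411 ± 52.2 CPM in CD4 CD5hi cells, and at 433 ± 29.1 CPM in CD8 CD5lo cells against 362 ± 86.1 CPM in CD4 CD5lo cells (SD, n = 4 each). These groups overlapped, and neither difference passed edgeR's test (log2 -0.23 ± 0.13, adjusted p = 0.215, and 0.26 ± 0.13, adjusted p = 0.218). With library number as a block, the CD5lo difference passed (0.28 ± 0.10, edgeR adjusted p = 0.0448), but not without libraries numbered 2 (0.200), 3 (0.133) or 4 (0.172), nor without the 3 B-marker-rich libraries (0.0626). Dusp2 was thus highest in CD8 CD5lo cells and lowest in CD8 CD5hi cells by mean, with each neighbouring pair of groups in that order overlapping.

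Dusp5 encodes a nuclear phosphatase specific for ERK. It lies at chr19:53529109-53542431 on the plus strand, with 2473 exonic bases in 4 blocks, and overlaps an antisense gene that had too few counts to be tested. By library number it had 7.74, 29.3, 52.0 and 36.7 CPM in CD8 CD5hi cells and 7.90, 31.9, 56.3 and 27.4 CPM in CD8 CD5lo cells. CD4 CD5hi libraries had 18.5, 77.3, 133 and 83.7 CPM, and in CD4 CD5lo cells 27.2, 86.3, 165 and 80.5 CPM. Library 1 was the lowest and library 3 the highest of every group, with a 6.04-fold to 7.15-fold range inside a group, so that the groups overlapped although each CD8 library lay below the CD4 library of the same number and CD5 class. Without a block, edgeR gave a log2 difference of -1.31 ± 0.66 for CD8 CD5hi against CD4 CD5hi cells (adjusted p = 0.154) and -1.54 ± 0.67 for CD8 CD5lo against CD4 CD5lo cells (adjusted p = 0.135).

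With library number as a block, Dusp5 was lower in CD8 cells in both, by -1.30 ± 0.10 at high CD5 (edgeR adjusted p = 7.22e-08) and -1.58 ± 0.10 at low CD5 (adjusted p = 1.21e-08), and it was lower in 4 of 4 numbers each time. These calls also held without each number in turn, without the 3 B-marker-rich libraries, and in DESeq2 with the block. Between CD5hi and CD5lo cells, Dusp5 differed by 0.03 ± 0.66 on the log2 scale in CD8 cells (edgeR adjusted p = 0.986) and by -0.20 ± 0.65 in CD4 cells (adjusted p = 0.988) and both values changed sign when some single libraries were left out. With the block the CD4 difference was -0.24 ± 0.09 (adjusted p = 0.139) and passed only without number 4 (-0.34, adjusted p = 0.0168).

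Dusp10 encodes a phosphatase that acts mainly on JNK and p38, so it feeds back on those kinases rather than on ERK. It lies at chr1:184013302-184075636 on the plus strand, with 3042 exonic bases in 6 blocks; the promoter window above starts inside this span, at another transcript. In the order of library number it had 71.9, 112, 195 and 124 CPM in CD8 CD5hi cells and 104, 161, 252 and 130 CPM in CD8 CD5lo cells. Values of CD4 CD5hi cells were 78.8, 234, 459 and 216 CPM, and in CD4 CD5lo cells 103, 341, 554 and 223 CPM. The CD4 means, 247 ± 158 CPM (CD5hi) and 305 ± 192 CPM (CD5lo), stood above the CD8 means, 126 ± 51.3 CPM (CD5hi) and 162 ± 64.3 CPM (CD5lo), but the libraries overlapped, and library 1 had much the same level in both lineages.

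For Dusp10, edgeR without a block gave -0.97 ± 0.50 for CD8 CD5hi against CD4 CD5hi cells (adjusted p = 0.164) and -0.92 ± 0.50 for CD8 CD5lo against CD4 CD5lo cells (adjusted p = 0.257). With the block both passed, at -0.81 ± 0.18 (edgeR adjusted p = 0.00229) and -0.75 ± 0.18 (adjusted p = 0.00594). The call at high CD5 held without each number in turn, whereas that at low CD5 was lost without number 2 (adjusted p = 0.0567) or 3 (0.0566). The CD5hi against CD5lo differences were -0.36 ± 0.50 in CD8 cells (adjusted p = 0.734) and -0.31 ± 0.50 in CD4 cells (adjusted p = 0.958).

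Dusp4 encodes another nuclear phosphatase of ERK, and JNK and p38 are also among its substrates. It lies at chr8:34807297-34819894 on the plus strand, with 2740 exonic bases in 4 blocks. Libraries 1 to 4 had 6.01, 19.8, 25.4 and 15.2 CPM in CD8 CD5hi cells and 4.4, 17.2, 26.3 and 9.83 CPM in CD8 CD5lo cells. The CD4 CD5hi libraries had 4.46, 16.7, 25.7 and 14.7 CPM, and in CD4 CD5lo cells 3.94, 13.6, 24.1 and 8.75 CPM. The 4 groups were almost superimposed, while libraries of one group differed 4.23-fold to 6.10-fold. No comparison of Dusp4 passed edgeR's test with or without the block; the log2 differences without it were 0.20 ± 0.61 (CD8 CD5hi against CD8 CD5lo), 0.29 ± 0.61 (CD4 CD5hi against CD4 CD5lo), 0.11 ± 0.61 (CD8 CD5hi against CD4 CD5hi) and 0.20 ± 0.61 (CD8 CD5lo against CD4 CD5lo). Without the 3 B-marker-rich libraries, the blocked difference between CD4 CD5hi and CD4 CD5lo cells was 0.45 and passed (edgeR adjusted p = 0.0313), where 8.59% of all genes were called.

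Dusp6 encodes the cytoplasmic phosphatase of ERK, in many tissues a direct readout of ERK activity. It lies at chr10:99263231-99267489 on the plus strand, with 3132 exonic bases in 4 blocks. Its levels in libraries 1 to 4 were 126, 104, 78.9 and 90.5 CPM in CD8 CD5hi cells and 113, 112, 89.1 and 82.0 CPM in CD8 CD5lo cells. CD4 CD5hi cells had 101, 94.3, 93.6 and 83.5 CPM, and in CD4 CD5lo cells 99.5, 92.7, 88.9 and 63.8 CPM. Group means ran only from 86.2 to 99.7 CPM, all groups overlapped, and library 1 was the highest in all 4. The log2 difference between CD5hi and CD5lo cells was 0.01 ± 0.15 in CD8 cells (95% interval -0.31 to 0.33) and 0.11 ± 0.15 in CD4 cells (-0.21 to 0.43), and no comparison passed edgeR's test with or without the block. Those intervals leave room for changes of up to about 0.4 on the log2 scale.

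Spry1 encodes a Sprouty protein induced by T cell receptor signals. It lies at chr3:37639947-37644598 on the plus strand, with 2906 exonic bases in 2 blocks, and overlaps an untested gene model on the other strand. Libraries 1 to 4 had 3.03, 3.73, 4.4 and 4.29 CPM in CD8 CD5hi cells and 2.23, 2.33, 4.22 and 2.33 CPM in CD8 CD5lo cells. In CD4 CD5hi cells they had 4.59, 5.33, 7.58 and 7.52 CPM, and in CD4 CD5lo cells 3.01, 4.39, 6.71 and 2.87 CPM. In the CD4 groups each CD5hi library lay above the CD5lo library of its number, yet the groups overlapped because of CD5lo library 3, which is rich in B cell markers, as is CD8 CD5lo library 3, the high one of its group.

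The Spry1 difference between CD4 CD5hi and CD4 CD5lo cells was 0.56 ± 0.28 on the log2 scale and did not pass edgeR's test (adjusted p = 0.444). With library number as a block it passed (0.60 ± 0.17, edgeR adjusted p = 0.0426), 1 of 9 members called where the same fit called 9.68% of all genes. That blocked call was lost without number 1 (adjusted p = 0.169), 2 (0.0884) or 4 (0.217). It also passed without a block once the 3 libraries rich in B cell markers were left out (0.87, edgeR adjusted p = 0.0350), where 3.94% of all genes were called. That fit drops CD4 CD5lo library 3 and keeps CD4 CD5hi library 3, and library 3 was the highest for Spry1 in all 4 groups. B cell content and library number thus cannot be told apart there. Regulatory T cell markers moved with this comparison: 7 of 10 were higher in CD4 CD5hi cells and 0 lower by edgeR, their summed level was 411.5 to 492.5 CPM in CD4 CD5hi libraries against 142.8 to 173.4 CPM in CD4 CD5lo libraries, and Foxp3, which defines these cells, had 14.4 to 22.1 CPM against 3.98 to 5.96 CPM. Their part in the Spry1 difference was not tested; in bulk samples a change in the share of a cell type and a change in RNA per cell cannot be told apart. In CD8 cells the difference was 0.48 ± 0.28 (edgeR adjusted p = 0.342). With the block edgeR called Spry1 as higher in CD8 CD5hi cells. That fit called 3390 of 13554 genes, and numbers 3 and 4 did not pair the libraries there.

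Between lineages, all 4 CD8 CD5hi libraries lay below all 4 CD4 CD5hi libraries for Spry1, which was so in either direction for 28.9% of all genes. The log2 difference was -0.70 ± 0.28 at high CD5 (edgeR adjusted p = 0.0717) and -0.61 ± 0.28 at low CD5 (adjusted p = 0.158). With the block both passed (-0.68 ± 0.17, edgeR adjusted p = 0.00480, and -0.60 ± 0.17, adjusted p = 0.0162), and each was lower in 4 of 4 numbers. The call at high CD5 held without each number in turn and that at low CD5 was lost without number 2 (adjusted p = 0.112) or 3 (0.0524). DESeq2 without the block also called Spry1 at high CD5, as it did 33.7% of all genes.

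Spry2, on the minus strand at chr14:105891947-105896819 with 2087 exonic bases in 2 blocks, encodes another Sprouty protein. Its counts were very low: 45, 112, 155 and 86 in CD8 CD5hi libraries 1 to 4, 12, 24, 67 and 12 in CD8 CD5lo libraries, 6, 17, 24 and 14 in CD4 CD5hi libraries, and 0, 4, 34 and 8 in CD4 CD5lo libraries. In CPM these were 0.602, 1.27, 1.79 and 1.09 in CD8 CD5hi cells against 0.159, 0.281, 0.933 and 0.129 in CD8 CD5lo cells. The CD4 CD5hi libraries had 0.0769, 0.201, 0.308 and 0.176 CPM and the CD4 CD5lo libraries 0, 0.0543, 0.444 and 0.102 CPM. Every CD8 CD5hi library thus lay above every CD4 CD5hi library, and such separation, in either direction, was found for 28.9% of all genes. The gene passed the filter on low counts, with counts above the minimum of 10 in libraries of both lineages.

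Spry2 was higher in CD8 CD5hi than in CD4 CD5hi cells by 2.63 ± 0.81 on the log2 scale (edgeR adjusted p = 0.0220) and in 4 of 4 numbers, with a blocked value of 2.73 ± 0.48 (adjusted p = 0.000316). Without the block, the call was lost without CD4 CD5hi library 1 (adjusted p = 0.0620), 2 (0.0534) or 4 (0.0593) or CD8 CD5hi library 3 (0.0567); with the block it held without each number in turn. At low CD5 the difference was 1.30 ± 0.83 (edgeR adjusted p = 0.344). It passed with the block (1.44 ± 0.51, adjusted p = 0.0438), but not without number 1 (0.114), 2 (0.170) or 4 (0.0581).

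The Spry2 difference between CD8 CD5hi and CD8 CD5lo cells was 1.67 ± 0.77 (95% interval 0.03 to 3.32, edgeR adjusted p = 0.213), and the groups overlapped through CD8 CD5lo library 3. Without the 3 B-marker-rich libraries it was 2.70 and passed (edgeR adjusted p = 0.0111), where 11% of all genes were called. That fit drops CD8 CD5lo library 3 and keeps CD8 CD5hi library 3, and library 3 was the highest for Spry2 in all 4 groups. It therefore cannot tell B cell content from library number. With all libraries and library number as a block, edgeR called Spry2 as higher in CD8 CD5hi cells, in a fit that called 3390 of 13554 genes. Numbers 3 and 4 did not pair the libraries there, although Spry2 was higher in 4 of 4 numbers. Cell cycle genes moved with the same comparison, with 13 of 14 higher in CD8 CD5hi cells and 0 lower, a summed level of 474.4 to 886.6 CPM against 343.8 to 418.2 CPM in CD8 CD5lo cells, and Mki67 at 19.6 to 90.9 CPM against 4.22 to 15.3 CPM. Of 10 memory and effector markers, 3 were higher and 0 lower, with a summed level of 673.5 to 1039 CPM in CD8 CD5hi libraries against 310.0 to 529.3 CPM in CD8 CD5lo libraries and Tbx21 at 8.80 to 17.8 CPM against 1.08 to 3.40 CPM. Their part in the level of Spry2 was not tested. In CD4 cells the Spry2 difference was 0.34 ± 0.85 (adjusted p = 0.984).

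Spred1 was the only member whose libraries did not overlap between lineages at either CD5 level. With library number as a block, however, Dusp5 had smaller edgeR adjusted p-values than Spred1 at both levels. The Spred1 protein inhibits activation of RAS and RAF, and its gene lies at chr2:117121374-117182279 on the plus strand with 6784 exonic bases in 7 blocks. Libraries 1 to 4 had 17, 16.4, 18.8 and 13.7 CPM in CD8 CD5hi cells and 14.3, 16.6, 16.0 and 12.6 CPM in CD8 CD5lo cells. In CD4 CD5hi cells they had 7.04, 10.8, 10.6 and 9.23 CPM, and in CD4 CD5lo cells 6.59, 10.6, 9.29 and 7.64 CPM. All 8 CD8 libraries stood above all 8 CD4 libraries, and in the order of the group means the step between CD8 CD5lo and CD4 CD5hi cells was the only one among the 9 genes with no overlap between neighbouring groups. The lineages did not overlap, in either direction, for 28.9% of all genes at high CD5 and 22.3% at low CD5. The share of genes that separate all 8 from all 8 was not computed.

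Spred1 was higher in CD8 CD5hi than in CD4 CD5hi cells by 0.81 ± 0.16 on the log2 scale (edgeR adjusted p = 0.00122) and in CD8 CD5lo than in CD4 CD5lo cells by 0.80 ± 0.16 (adjusted p = 0.00187). Both calls held with the block (0.82 ± 0.11, edgeR adjusted p = 2.38e-05, and 0.81 ± 0.11, adjusted p = 3.62e-05), in DESeq2 and limma voom, and without any single library. The CD5hi against CD5lo difference was 0.15 ± 0.16 in CD8 cells (95% interval -0.19 to 0.49, adjusted p = 0.645) and 0.14 ± 0.16 in CD4 cells (-0.20 to 0.49, adjusted p = 0.901).

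Spred2, at chr11:19924375-20024026 on the plus strand with 4619 exonic bases in 8 blocks, encodes the related inhibitor. Libraries 1 to 4 had 25.0, 35.3, 35.4 and 31.7 CPM in CD8 CD5hi cells and 28.9, 40.8, 37.3 and 37.3 CPM in CD8 CD5lo cells. In CD4 CD5hi cells they had 24.0, 28.7, 30.2 and 25.5 CPM, and in CD4 CD5lo cells 23.7, 25.1, 27.2 and 27.0 CPM. The CD8 CD5lo libraries all lay above the CD4 CD5lo libraries, which was so in either direction for 22.3% of all genes, whereas the CD5hi groups of the lineages overlapped.

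Spred2 was higher in CD8 CD5lo than in CD4 CD5lo cells by 0.49 ± 0.12 on the log2 scale (edgeR adjusted p = 0.00804), a call that held without any single library and without the 3 B-marker-rich libraries. At high CD5 the difference was 0.23 ± 0.12 (edgeR adjusted p = 0.162). It passed with the block (0.23 ± 0.07, adjusted p = 0.0138), but not without number 3 (0.0505) or 4 (0.0633). The change in this lineage difference with CD5, which is the interaction, was -0.25 ± 0.17 and did not pass (edgeR adjusted p = 0.870).

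**Figure D2:**
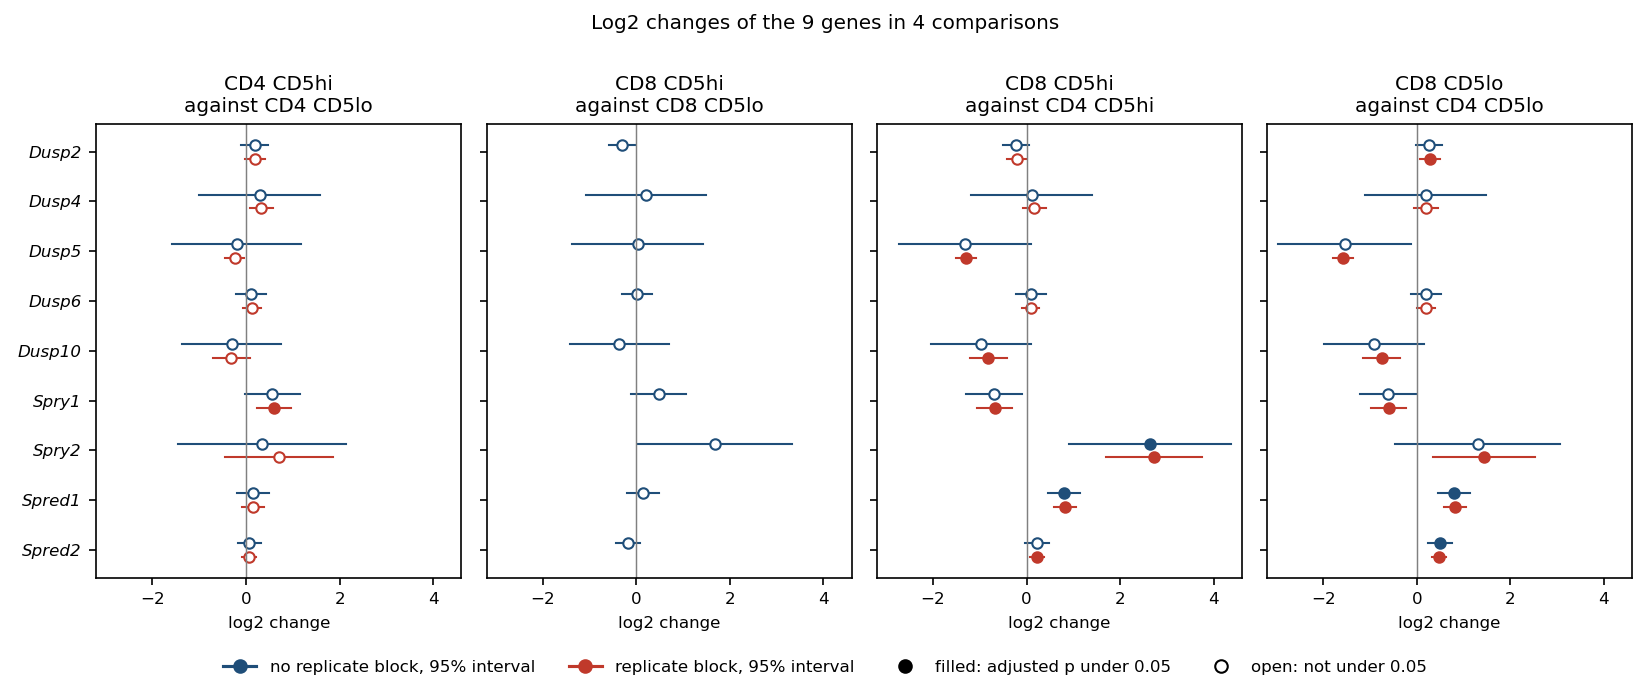
Log2 change (x axis) of each gene in 4 comparisons, with 95% intervals; blue is edgeR without and red with library number as a block, and filled points have an adjusted p under 0.05. The block narrowed the intervals of Dusp4, Dusp5 and Dusp10 most, and it is not drawn for CD8 CD5hi against CD8 CD5lo, where numbers 3 and 4 did not pair the libraries.

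Across the 9 genes, the lineage comparison without a block thus called 2 as higher and 0 as lower in CD8 cells at each CD5 level. These were Spry2 and Spred1 at high CD5, where 30.3% of all genes were called (15.6% as higher), and Spred1 and Spred2 at low CD5, where 19.5% were called (10% as higher). With the block, 6 were called at high CD5, where 46.7% of all genes were called. The 3 higher in CD8 CD5hi cells were Spry2, Spred1 and Spred2, and the 3 lower were Dusp5, Dusp10 and Spry1. At low CD5 the block called 7, where 32.1% of all genes were called, with Spry2, Spred1, Spred2 and Dusp2 higher and Dusp5, Dusp10 and Spry1 lower in CD8 CD5lo cells. Without the block, single libraries also decided some calls. Spry1 at high CD5 passed without CD8 CD5lo library 3, CD4 CD5hi library 1 or CD4 CD5lo library 3, and Spred2 at high CD5 without CD8 CD5hi library 1 (adjusted p = 0.0292). At low CD5, Spry1 passed without CD8 CD5lo library 3 (0.0369), Spry2 without CD4 CD5lo library 3 (0.0364) and Dusp2 without CD4 CD5lo library 1 (0.0197). Without the 3 B-marker-rich libraries, Spry1 passed at high CD5 (0.0177). The median log2 difference of the 9 was 0.10 at high CD5 and 0.20 at low CD5, beside 0.01 and 0.00 over all genes. Memory and effector markers moved with lineage, with 10 of 10 higher at high CD5 (673.5 to 1039 CPM in CD8 CD5hi libraries against 83.79 to 103.3 CPM in CD4 CD5hi libraries) and 8 of 10 higher at low CD5 (310.0 to 529.3 CPM in CD8 CD5lo libraries against 47.81 to 73.02 CPM in CD4 CD5lo libraries). Of 14 cell cycle genes, 13 were higher and 0 lower in CD8 CD5hi cells (summed level 474.4 to 886.6 CPM against 403.9 to 470.5 CPM in CD4 CD5hi cells), while 1 was higher and 2 lower in CD8 CD5lo cells (343.8 to 418.2 CPM against 362.5 to 455.5 CPM in CD4 CD5lo cells). Of 10 regulatory T cell markers, 1 was higher and 6 lower in CD8 CD5hi cells (202.6 to 209.4 CPM against 411.5 to 492.5 CPM in CD4 CD5hi cells), and 1 higher and 4 lower in CD8 CD5lo cells (116.2 to 160.5 CPM against 142.8 to 173.4 CPM in CD4 CD5lo cells). Natural killer cell markers were higher in CD8 cells, 4 of the 4 tested at high CD5 and 3 at low CD5, with most of their summed level in Nkg7 (340 to 401 CPM in CD8 CD5hi cells against 0.205 to 0.302 CPM in CD4 CD5hi cells), a gene also made by CD8 T cells. Of 5 tested thymocyte markers, 3 were higher and 1 lower at high CD5, and 3 higher and 0 lower at low CD5. The part of these lists in the lineage differences was not tested.

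For several of the phosphatase genes, library number held a larger share of the variation than lineage or CD5 class. The sum of squares of log2 CPM over the 16 libraries was divided into lineage, CD5 class, their combination, library number and the rest. Library number has more levels than lineage or CD5 class and so takes a larger share by itself. The shares are not adjusted for this, and each is best read beside the value over all genes. Library number held 93.9% for Dusp4, 66.4% for Dusp10, 65.5% for Dusp5 and 62.7% for Dusp6, so 4 of 9 members were over 60%, as were 15.8% of all tested genes. The median share over all genes was 29.0%. For the other members it was 33.5% (Dusp2), 32.3% (Spred2), 29.8% (Spry2), 29.2% (Spry1) and 13.8% (Spred1). Lineage held 76.6% for Spred1, 50.8% for Spred2, 37.9% for Spry2, 33.2% for Dusp5 and 31.7% for Spry1, beside a median of 18.2% over all genes. CD5 class held most for Spry1 (25.5%) and Spry2 (19.3%), and the combination of lineage and CD5 held 33.6% for Dusp2.

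**Figure D3:**
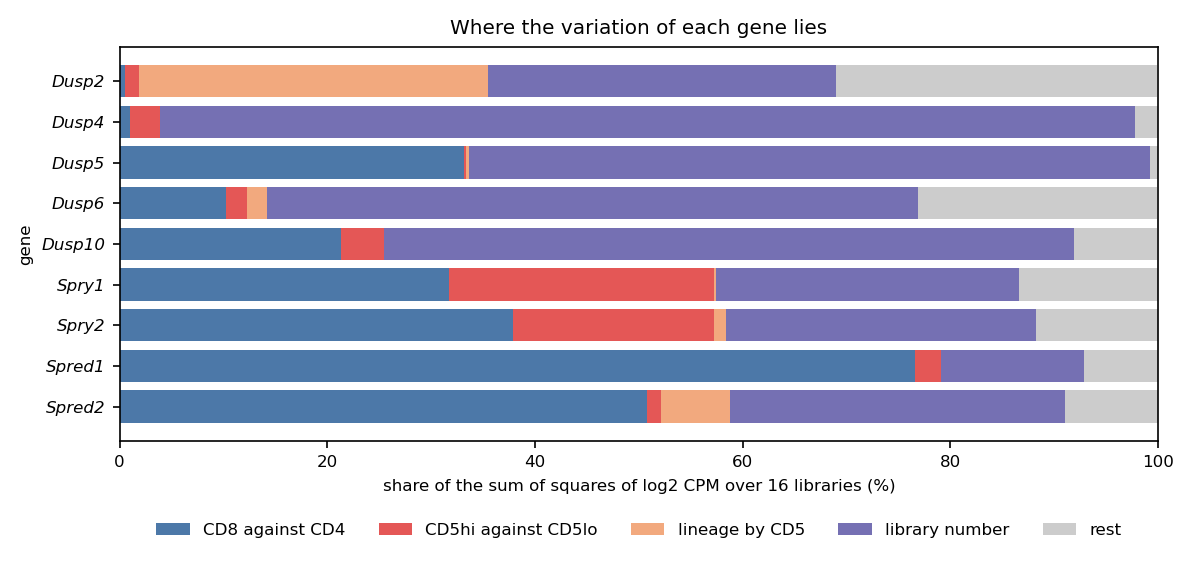
Share of the sum of squares of log2 CPM over the 16 libraries (x axis, %) that falls to lineage, CD5 class, their combination, library number and the rest, for each gene. Library number takes 93.9% for Dusp4 and lineage takes 76.6% for Spred1.

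The order of the numbers was shared between genes. Library 1 was the lowest and library 3 the highest in all 4 groups for Dusp4, Dusp5 and Dusp10, a pattern found in 354 of 13554 tested genes (2.61%). With no number fixed beforehand, the same lowest and the same highest number in all 4 groups were found in 766 genes (5.65%). Spry1 and Spry2 had library 3 highest in all 4 groups, Spred2 had library 1 lowest in all 4, and Dusp6 ran the other way, with library 1 highest in all 4. The share of all genes with these partial orders was not computed. After the group means were removed, the log2 levels of Dusp4 and Dusp5 had a Pearson r of 0.970 over the 16 libraries, those of Dusp4 and Dusp10 0.939, and those of Dusp5 and Dusp10 0.912; these are descriptions, since the libraries share numbers. Dusp6 had an r of -0.582 with Dusp5 and 0.441 with Dusp2. Genes of a handling stress list (such as Fos, Jun and the heat shock genes) also varied by number, with a median share of 38% and 5 of 12 over 60%; their part in the pattern of the phosphatase genes was not tested. Of 25 genes listed as ERK-induced transcripts, 8 were over 60%, with a median of 15%.

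**Figure D4:**
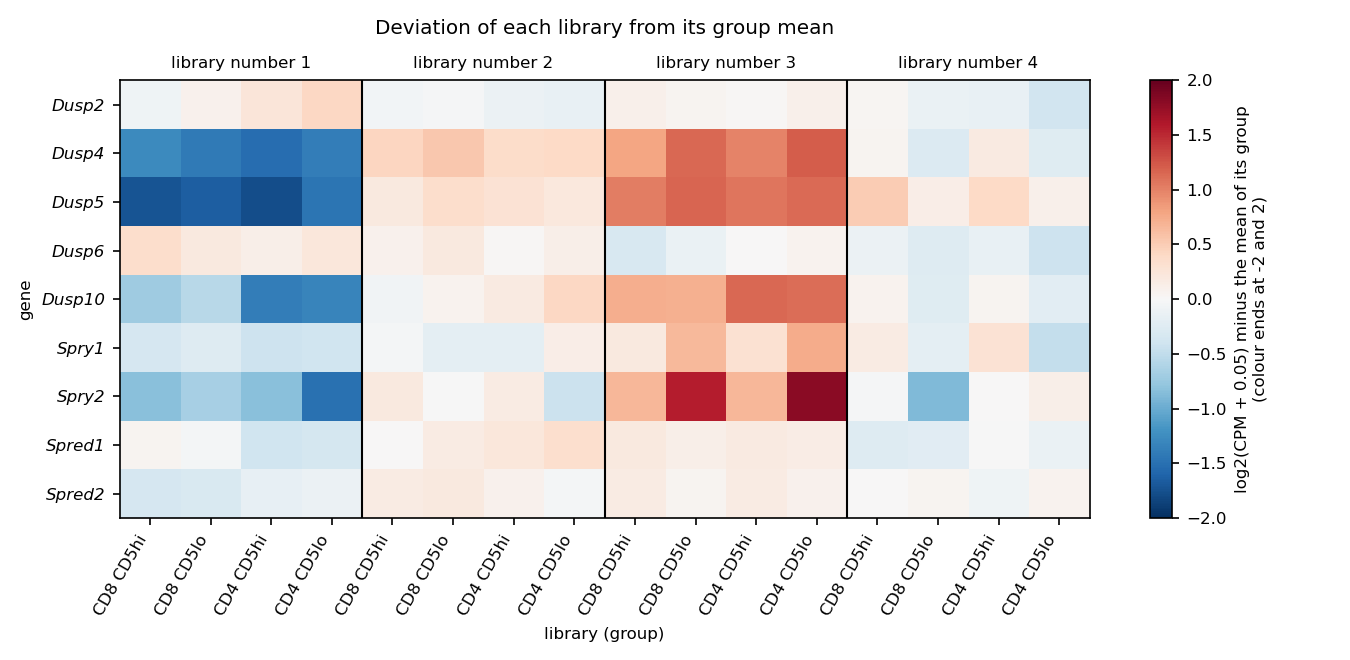
Deviation of each library's log2(CPM + 0.05) from the mean of its group (colour, ends at -2 and 2) for the 9 genes (rows), with libraries ordered by number. Dusp4, Dusp5 and Dusp10 are below their group means in the 4 libraries numbered 1 and above them in the 4 numbered 3.

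For each member, the genes with the most similar log2 CPM over the 16 libraries were named by Pearson r, among genes with a mean of at least 5 CPM. They were Sde2 (0.980) and Acot2 (0.979) for Dusp5, Sde2 (0.957) and Rnf146 (0.956) for Dusp10, and Bcl10 (0.960) and Chka (0.959) for Dusp4. Sde2 headed the lists of both Dusp5 and Dusp10. Those of Spred1 were Rmnd5a (0.947) and Sap30 (0.940), those of Spred2 Camk1d (0.945) and Hdac4 (0.939), those of Spry2 Gfod1 (0.952) and Naf1 (0.929), and those of Spry1 Ing2 (0.891) and Vav2 (0.889). Dusp6 (Gorab, 0.805, and Prmt6, 0.804) and Dusp2 (Slc2a8, 0.781, and Rsph3a, 0.761) had no gene as close. Lineage and library number are shared by all genes and enter every one of these values.

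Other genes of the same pathway were compared between CD5hi and CD5lo cells, where edgeR called 9.46% of all genes in CD8 cells and 4.08% in CD4 cells. Of 7 further MAPK phosphatase, Sprouty and Spred genes with enough counts, 0 were called between CD5hi and CD5lo cells in either lineage by edgeR, DESeq2 or limma voom, and 1 (Dusp1, in CD8 cells) had an unadjusted p under 0.05. Of 9 atypical DUSP genes, 0 were called in either lineage by any of these tools, and 0 had an unadjusted p under 0.05. Of 22 genes of the RAS to ERK cascade, edgeR and limma voom called 0 in either lineage, DESeq2 called 2 in CD8 cells and 1 in CD4 cells, and 6 in CD8 cells and 4 in CD4 cells had an unadjusted p under 0.05. Of 13 genes of the p38 and JNK cascades, edgeR called 0 in either lineage, while DESeq2 and limma voom each called 0 in CD8 cells and 2 in CD4 cells; at an unadjusted p under 0.05 there were 1 in CD8 cells and 2 in CD4 cells.

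With the block, edgeR called 3 of the cascade genes between CD4 CD5hi and CD4 CD5lo cells, namely Ksr1 and Mapk3 (higher) and Rras (lower), and both Mapk11 and Mapk12, p38 kinases, as higher. That fit called 9.68% of all genes. Of 10 genes that switch RAS off, 2 were called in CD4 cells without the block, where 4.08% of all genes were called. Rasal1 was higher in CD4 CD5hi cells, at 79.7 ± 5.19 CPM against 45.6 ± 4.44 CPM in CD4 CD5lo cells (log2 0.81 ± 0.12, edgeR adjusted p = 0.000464), and Rasa4 was lower, at 5.13 ± 0.643 CPM against 7.96 ± 1.28 CPM (log2 -0.64 ± 0.13, adjusted p = 0.00906). In CD8 cells 0 of 10 were called by edgeR, DESeq2 or limma voom, and 0 at an unadjusted p under 0.05.

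Of 25 genes listed as ERK-induced transcripts, 2 were higher and 1 lower in CD8 CD5hi than in CD8 CD5lo cells, where 9.46% of all genes were called. In CD4 CD5hi cells 3 were higher and 0 lower than in CD4 CD5lo cells, where 4.08% of all genes were called. Whether ERK induces each of the 25 in these cells, Elk3 included, was not tested. The transcription factor genes Elk3 and Etv5 were called in both lineages: Elk3 by 0.28 ± 0.07 in CD8 and 0.42 ± 0.07 in CD4 cells (log2; edgeR adjusted p = 0.0268 and 0.00255), and Etv5 by 0.66 ± 0.18 and 0.83 ± 0.19 (adjusted p = 0.0317 and 0.0165). In CD8 cells the Elk3 call was lost without CD8 CD5hi library 2 or CD8 CD5lo library 1 or 4 (highest adjusted p 0.105). The Etv5 call there was lost without CD8 CD5hi library 1 or 2 or CD8 CD5lo library 1, 3 or 4 (highest 0.0934), and also without the 3 B-marker-rich libraries (0.0589). In CD4 cells the Etv5 call was lost without CD5hi library 4 (0.0563). Egr3, the third gene higher in CD4 CD5hi cells (0.52 ± 0.13, adjusted p = 0.0357), lost its call without any 1 CD4 library other than CD4 CD5hi library 3 (highest 0.115), and without the 3 B-marker-rich libraries (0.0597). Zfp36, an RNA decay factor, was lower in CD8 CD5hi cells (-0.45 ± 0.14, adjusted p = 0.0493), a call lost without any single library other than CD8 CD5hi library 4 and CD4 CD5lo library 4 (highest 0.189) and without the 3 B-marker-rich libraries (0.0664); it is also 1 of the 12 handling stress genes, of which 4 were lower and 0 higher in CD8 CD5hi cells. The median log2 change of the 25 was -0.08 in CD8 and -0.04 in CD4 cells.

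More of the pathway differed between lineages, as did more of all genes (30.3% at high and 19.5% at low CD5). Spry4, the Sprouty gene outside the 9, was higher in CD8 cells at both CD5 levels, with 4.80 ± 1.45 CPM in CD8 CD5hi cells and 0.888 ± 0.501 CPM in CD4 CD5hi cells (log2 2.43 ± 0.47, edgeR adjusted p = 0.000971), and 3.45 ± 1.5 CPM in CD8 CD5lo cells and 0.946 ± 0.437 CPM in CD4 CD5lo cells (log2 1.87 ± 0.47, adjusted p = 0.00880). Dusp16, a phosphatase gene that acts on JNK and p38, was higher in CD8 CD5hi cells (log2 1.47 ± 0.51, adjusted p = 0.0382), a call lost without CD8 CD5hi library 2 or 3 or CD4 CD5hi library 1, 2 or 4 (highest adjusted p 0.147). Of the atypical DUSP genes, 4 of 9 were higher and 1 lower in CD8 CD5hi cells, and 3 higher and 1 lower in CD8 CD5lo cells. Dusp22 (log2 1.00 ± 0.12 at high and 0.83 ± 0.12 at low CD5), Dusp18 (2.27 ± 0.56 and 1.69 ± 0.54) and Dusp28 (0.29 ± 0.08 and 0.29 ± 0.08) were higher at both, Dusp19 (0.41 ± 0.15) was higher at high CD5, and Dusp23 (-0.74 ± 0.20 and -0.75 ± 0.20) was lower at both. The Dusp19 call was lost without CD8 CD5hi library 1, CD8 CD5lo library 3 or CD4 CD5hi library 2, 3 or 4. At low CD5, the Dusp28 call was lost without CD8 CD5lo library 1 or CD4 CD5lo library 1 or 4, and the Dusp18 call without CD8 CD5lo library 2, 3 or 4, any CD4 CD5lo library, or the 3 B-marker-rich libraries (adjusted p = 0.0899).

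In the cascade itself, 3 of 22 genes were higher and 5 lower in CD8 CD5hi than in CD4 CD5hi cells, and 3 were higher and 3 lower in CD8 CD5lo than in CD4 CD5lo cells. Rras2, a RAS relative, had the largest rise, to 99.1 ± 21.6 CPM in CD8 CD5hi cells against 28.6 ± 2.42 CPM in CD4 CD5hi cells (log2 1.79 ± 0.13, edgeR adjusted p = 2.87e-08). It was also higher at low CD5 (log2 1.29 ± 0.13). The scaffold gene Ksr1 was lower in CD8 cells (-0.83 ± 0.11 at high and -0.53 ± 0.11 at low CD5; edgeR adjusted p = 2.63e-05 and 0.00237). The adaptor gene Grb2 was lower too (-0.25 ± 0.06 and -0.22 ± 0.06), though at low CD5 not without the 3 B-marker-rich libraries (adjusted p = 0.0608). Mapk3, which encodes ERK1, was lower at high CD5 (-0.35 ± 0.09, edgeR adjusted p = 0.00539). Rasgrp1, the RAS activator below the T cell receptor, was lower at high (-0.42 ± 0.12, adjusted p = 0.0115) and at low CD5 (-0.51 ± 0.12, adjusted p = 0.00469). Its call at high CD5 was lost without CD4 CD5hi library 2. Of the p38 and JNK cascade, 0 of 13 were higher and 5 lower in CD8 CD5hi cells, and 0 higher and 4 lower in CD8 CD5lo cells. They were Mapk11 (-2.31 ± 0.21 and -2.09 ± 0.21) and Mapk12 (-3.30 ± 0.38 and -2.38 ± 0.38), both p38 kinases, Map2k6 (-0.78 ± 0.09 and -0.71 ± 0.09), Map3k5 (-0.63 ± 0.15 and -0.65 ± 0.15) and, at high CD5, Map3k1 (-0.39 ± 0.14), whose call was lost without any single library other than CD8 CD5lo library 1 and CD4 CD5hi library 1 (highest adjusted p 0.170) and without the 3 B-marker-rich libraries (0.0701).

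Among the 10 genes that switch RAS off, Rasal1 (log2 -1.47 ± 0.12 at high and -0.74 ± 0.12 at low CD5) and Rasa3 (-0.22 ± 0.05 and -0.30 ± 0.05) were lower in CD8 cells at both CD5 levels. Of the 25 genes listed as ERK-induced transcripts, 4 were higher and 6 lower in CD8 CD5hi cells, and 4 higher and 4 lower in CD8 CD5lo cells. Ier3 (3.32 ± 0.40 and 2.98 ± 0.39) and Myc (0.58 ± 0.08 and 0.52 ± 0.08) were higher and Mcl1, which encodes a survival factor, was lower (-0.42 ± 0.06 and -0.39 ± 0.06) in CD8 cells at high and low CD5. At high and low CD5, Junb was lower (-0.99 ± 0.17 and -0.80 ± 0.17) and Egr3 was higher (0.44 ± 0.13 and 0.67 ± 0.13). The Egr3 call at high CD5 was lost without CD4 CD5hi library 3 or CD8 CD5hi library 2 or 4. Junb is also on the handling stress list, of which 4 of 12 were lower at high and 2 at low CD5 and 0 higher; its part in these differences was not tested.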

How the data were processed

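The authors deposited raw read counts per gene for 16 libraries. Per the submitters' processing notes, STAR 2.5.2a, featureCounts 1.4.6-p3 and DESeq2 were used with mm10; per the labels' protocols, libraries came from a TruSeq RNA v2 or a stranded mRNA kit, and the sources used here do not say which one a sample had. Deposited counts of 1 to 9 were mostly even (73.94% to 80.52% per library), so all counts were also halved as an alternative.

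Libraries were grouped by their titles. Genes were filtered with filterByExpr (minimum count 10, total 15), scaled by TMM and tested with edgeR 4.0.16 (quasi-likelihood, 12 residual degrees of freedom, all 4 groups in 1 fit, Benjamini-Hochberg over all 13554 genes) in R 4.3.3; DESeq2 1.42.0 and limma 3.58.1 (voom) were alternatives. The members and gene lists were chosen with earlier results of these data known. All 9 members are named; of other lists, every passing gene where at most 5 passed, otherwise the 4 with the smallest adjusted p. A result that this rule would name is not reported here. Intervals cover 95%.

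Same-numbered libraries deviated together between CD4 CD5hi and CD4 CD5lo (r 0.2233 to 0.5078), CD8 CD5hi and CD4 CD5hi (0.2142 to 0.4973) and CD8 CD5lo and CD4 CD5lo (0.1793 to 0.6779), so number served there as a block. The fit was tested on simulated data. Other alternatives were RLE scaling, library size only, no filter, only the groups compared, and leaving out libraries.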

Additional observations from a re-analysis of the deposited data

Results flagged for a closer look

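Spry1 in CD8 CD5lo library 3 stood apart from the other libraries of its group, with 4.22 CPM against 2.23 to 2.33 CPM, a gap of 0.95 of the group's range. That library also had a summed B cell marker level of 502.9 CPM, and the part of this in its Spry1 level was not tested. Chance alone marks about 1 in 20 groups in this way, and 36 were examined.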

How the results depend on the processing

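With DESeq2, RLE scaling, library size only, no filter and halved counts, none of the 45 log2 changes turned; limma voom turned 1, the interaction of Dusp4 (0.0012). The replicate block called 1 member between CD4 CD5hi and CD4 CD5lo, 7 between CD8 CD5lo and CD4 CD5lo and 6 between CD8 CD5hi and CD4 CD5hi, with 1312, 4345 and 6336 genes in all. For CD8 CD5hi against CD8 CD5lo, numbers 1 and 2 paired the libraries (r 0.5286 and 0.2248) and numbers 3 and 4 did not (0.03246 and -0.04623). CD8 CD5lo library 3 and CD8 CD5hi library 4 are rich in B cell markers, and the part of this in the pairing was not tested. The block called 3 members there (Spry2, Spry1 higher, Dusp2 lower) and 3390 genes. In the interaction it called 379 genes against 42 without it. DESeq2 called 218 genes in the interaction, and leaving out the 3 libraries rich in B cell markers gave 129. The 2 CD8 groups alone gave 1 member and 813 genes, against 1282.

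Without those 3 libraries, 1 member was called between CD5hi and CD5lo in each lineage, and Dusp5 (0.27) and Dusp10 (0.15) turned in CD4 cells. That fit had no block, and it dropped library 3 from both CD5lo groups while keeping it in the CD5hi groups. Library 3 was the highest in all 4 groups for Dusp5, Dusp10, Spry1 and Spry2, so B cell content and library number cannot be told apart there. Further fits were chosen after seeing the data. Block without the 3 libraries called 2 (CD4), 3 (CD8), 6 (low CD5 lineage) and 7 (high CD5 lineage), and turned Dusp5 (-0.014) and Dusp6 (-0.026) in CD8 cells. DESeq2 with the block called 1, 5, 7 and 6, and 1 in the interaction, Dusp2. The block without 1 number at a time called 0 to 1 in CD4 cells, 0 to 3 in CD8 cells, 3 to 6 at low CD5 and 5 to 6 at high CD5; it turned Dusp6 (-0.035 without number 1, -0.021 without 4) and Dusp5 (-0.077 without 4) in CD8 cells, and in the interaction Dusp10 (0.00079) and Spred1 (-0.027) without 1, Dusp4 (0.0080, 0.014 and 0.024 without 2, 3 and 4) and Spry1 (0.058 without 4). The cause was not tested.

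Leaving out single libraries moved the log2 changes of the following across 0. For CD4 CD5hi against CD4 CD5lo they were Dusp10 (-0.80 to 0.15), Dusp4 (-0.079 to 0.81), Dusp5 (-0.58 to 0.27), Dusp6 (-0.011 to 0.19) and Spry2 (-0.072 to 1.84). For CD8 CD5hi against CD8 CD5lo they were Dusp4 (-0.081 to 0.66), Dusp5 (-0.31 to 0.49) and Dusp6 (-0.11 to 0.12), with 763 to 1647 genes called. In the interaction they were Dusp10 (-0.50 to 0.45), Dusp4 (-0.59 to 0.37), Dusp5 (-0.23 to 0.69), Dusp6 (-0.22 to 0.026), Spred1 (-0.11 to 0.13), Spry1 (-0.38 to 0.19) and Spry2 (-0.15 to 2.30), with 8 to 165 genes called. At high CD5 between lineages they were Dusp4 (-0.19 to 0.49) and Dusp6 (-0.019 to 0.21), with 1 to 3 members called, and at low CD5 Dusp4 (-0.26 to 0.72), with 2 to 3 called. Depth limits Spry2, whose counts ran from 0 to 155; intervals and p-values do not cover errors other than the spread between these libraries.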
